A study of Mus musculus with 20 samples.

Results

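The odorant receptor genes of mouse chromosome 16 were described across cells sorted from the olfactory mucosa of odor-exposed and air-exposed mice. A probe set was a member when its identifier places it on chromosome 16 and its symbol is Olfr followed by a number, with Olfr15 left out. This gave 35 members among 22206 probe sets for genes and among 1080 odorant receptors on the array. All 36 protein-coding Olfr genes of chromosome 16 in the RefSeq gene table have a probe set, Olfr15 included, and the 9 Olfr pseudogenes there have none.

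The samples came from S100a5-tauGFP mice, in which tauGFP reports expression of S100a5, a calcium-binding protein gene whose transcription in olfactory sensory neurons rises with activity. The assay uses this reporter to look for receptors of neurons that an odor activates. The 30 mice, of both sexes and 7 to 12 weeks old, each spent 40 h in a clean-air chamber at 3.1 L/min. From 26 h on, they received pulses of 10 s every 20 min, of filtered air (vehicle) in 5 pools of 3 mice and of artificial cigarette smoke odor in the other 5 pools. The series design text names bourgeonal as the odorant, whereas the series title and every sample label name artificial cigarette smoke odor, which is followed here. Each pool was split by fluorescence into GFP+ and GFP- cells, so 4 groups of 5 samples were measured on Clariom S arrays. All mice, vehicle included, carry the reporter. Strain, sorting gate and the number of copies of the reporter allele were not stated in the sources used here. A sample is a pool of 3 mice, so the spread between samples is between pools and not between animals.

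Odorant receptors are G protein-coupled receptors in the cilia of olfactory sensory neurons. A mature neuron expresses mainly 1 allele of 1 receptor gene, chosen from clusters spread over most chromosomes. A bound receptor acts through the G protein encoded by Gnal, adenylyl cyclase 3 and a cyclic nucleotide-gated channel. In bulk samples, fewer neurons with a receptor and less of its mRNA in each neuron cannot be told apart.

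In gene order the 35 receptors lie in 4 runs with no other protein-coding gene between them. Olfr161 and Olfr19 each stand alone, Olfr164 to Olfr171 form a run of 8, and Olfr172 to Olfr209 form a run of 25. The older family names in RefSeq put 10 members in MOR182, 8 in MOR184, 6 in MOR183, 3 in MOR273 and 2 in MOR279. Olfr193 carries both a MOR113 and a MOR183 name, and was counted apart from both in all counts of families and pairs. The other 5 are single members of their families.

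The trio and the pair below are shown because neighbours of the same family went opposite ways, or separate ways, in the sort. RefSeq windows (GRCm38.p6) of 250 bases before and 50 after the gene start were given for 28 of the 35 members. In 18 of these 28, as in 73.3% of the 893 windows of other receptors, the gene start is an ATG, so the window lies before the coding start. Olfr201, Olfr202 and Olfr203, neighbours of family MOR182, lie at chr16:59269663-59269765 (minus strand), chr16:59284493-59284595 (minus strand) and chr16:59303055-59303157 (plus strand). Each line gives 100 bases before the gene start and 3 from it on, 5′ to 3′, with the start ATG in capitals.
Olfr201: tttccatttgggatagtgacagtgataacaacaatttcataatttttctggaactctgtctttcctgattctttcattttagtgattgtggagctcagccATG
Olfr202: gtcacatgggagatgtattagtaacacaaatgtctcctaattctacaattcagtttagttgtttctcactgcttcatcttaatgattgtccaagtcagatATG
Olfr203: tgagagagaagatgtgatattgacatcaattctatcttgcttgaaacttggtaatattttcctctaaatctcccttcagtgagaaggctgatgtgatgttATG
Olfr169 and Olfr170, neighbours of family MOR273, had the most similar upstream stretches of the pairs within a family, at 92.5% identity in an end-to-end alignment of 250 bases. In the lines below, from chr16:19566879-19566981 and chr16:19606661-19606763 (both minus strand), the capitals mark the 6 of 103 bases that differ.
Olfr169: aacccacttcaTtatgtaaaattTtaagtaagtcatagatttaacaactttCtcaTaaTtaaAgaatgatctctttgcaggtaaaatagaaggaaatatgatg
Olfr170: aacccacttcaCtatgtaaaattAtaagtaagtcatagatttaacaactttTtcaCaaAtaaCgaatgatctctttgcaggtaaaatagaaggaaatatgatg

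Upstream stretches of 250 bases were also aligned end to end for all pairs. Median identity was 51.9% over 66 pairs of the same family and 51.5% over 312 pairs of different families. The latter include Olfr191 and Olfr193, at 79.3%, as Olfr193 was counted apart. Olfr201 and Olfr202 shared 59.3%, Olfr201 and Olfr203 52.7%. Motifs were searched on both strands in the 250 bases before the start. That start is an ATG in 64.3% of member windows, 73.3% of other receptor windows and 6.75% of all windows. Motif shares over all windows thus come mostly from an unlike kind of stretch. An ATG start does not show where transcription begins, so these stretches are not taken as promoters. Motif matches in them are not read as promoter sites. The homeodomain core TAATTA, of the kind that LHX2 binds, was found in 4 of 28 members (14.3%), in 18.1% of other receptors and in 4.9% of all 27025 windows. TAATTG was found in 3 members (10.7%), in 23.3% of other receptors and in 7.34% of all windows. The site CCCNNGGGA of EBF factors was found in 0 members, in 2.35% of other receptors and in 5.53% of all windows. TATAAA was found in 12 members (42.9%), in 39.3% of other receptors and in 13% of all windows. A match of 1 motif can overlap a match of another. By call in the sort of vehicle pools described further on, a homeodomain core stood in 3 of 13 higher, 0 of 4 lower and 4 of 11 other members with a window. In Olfr169 a TAATTA lies 45 bases before the start, and 2 of the 6 bases that differ in Olfr170 lie in it.

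The deposited values are log2 signals, so a difference of 1 is a 2-fold difference, and levels of different probe sets are not set against each other. The 4 arrays of replicate 5, which are 1 array in each group, had median signals of 7.03 to 7.46, and the other 16 arrays of 6.06 to 6.39. The brightest signal of an array went the other way, from 18.49 to 18.65 on replicate 5 and from 18.93 to 19.86 on the others. Over the 35 members and 4 groups, the array of replicate 5 was the brightest of its 5 in 110 of 140 cases (78.6%). Median signals of the 23 background control probe sets ran from 5.14 to 6.34 over the 20 arrays, and a group mean in or under this range is called background here. The labelled tissue was borne out by its markers: Omp, the olfactory marker protein gene of mature neurons, and the other markers of a list of 15 were above background in all 4 groups. Omp differed between fractions by 0.22 (SE 0.23, limma adjusted p = 0.717) in vehicle pools and by 0.12 in odor pools. S100a5, the reporter's own gene, was higher in GFP+ cells by 1.30 (limma adjusted p = 0.0368) in vehicle pools, a call lost without vehicle pool 2, 3 or 5 or odor pool 1 or 3, without both pools numbered 5, with quantile normalization (adjusted p 0.0708) and with arrays centred on mature neuron markers, and by 2.15 (0.00131) in odor pools. Cells other than neurons were seen by their markers in the GFP- fraction: all 11 measured white blood cell markers were lower in GFP+ cells, with a median of -7.71 in vehicle and -7.42 in odor pools. In vehicle pools the mean level of that list ran from 13.8 to 14.6 in GFP- samples and from 5.80 to 6.41 in GFP+ samples, and 6 of the 11, Itgam and Csf1r among them, were at background in GFP+ cells. Its part in the receptors' results was not tested.

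In vehicle pools, 18 of the 35 receptors were higher in GFP+ than in GFP- cells, 4 were lower and 13 did not pass the test. The background for higher calls was 2.26% of all probe sets and 33.1% of the 1045 other odorant receptors, and for lower calls 6.86% and 15.9%. The members' shares were 51.4% and 11.4%. Their median log2 difference was 1.25, with 0.50 over other receptors and 0.09 over all probe sets. Differences ran from -4.82 for Olfr19 to 3.77 for Olfr166. In 19 members GFP+ was higher in all 5 pools (5.64% of all probe sets, 34.5% of other receptors), and in 5 it was lower in all 5 (8.55% and 16.6%). GFP+ samples all lay above GFP- samples for 11 members (0.829% of all probe sets) and all below for 2, Olfr19 and Olfr180 (3.91%). The calls are from 1 limma fit of the differences within all 10 pools, with Benjamini-Hochberg adjustment over all 22206 probe sets. Vehicle and odor pools thus share 1 estimate of the spread. The 4 lower calls, of Olfr19, Olfr180, Olfr183 and Olfr202, became 2 without vehicle pool 2 and 1 without both pools numbered 5. When arrays were centred on the 15 mature neuron markers, 13 members were higher and 5 lower.

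**Figure D1:**
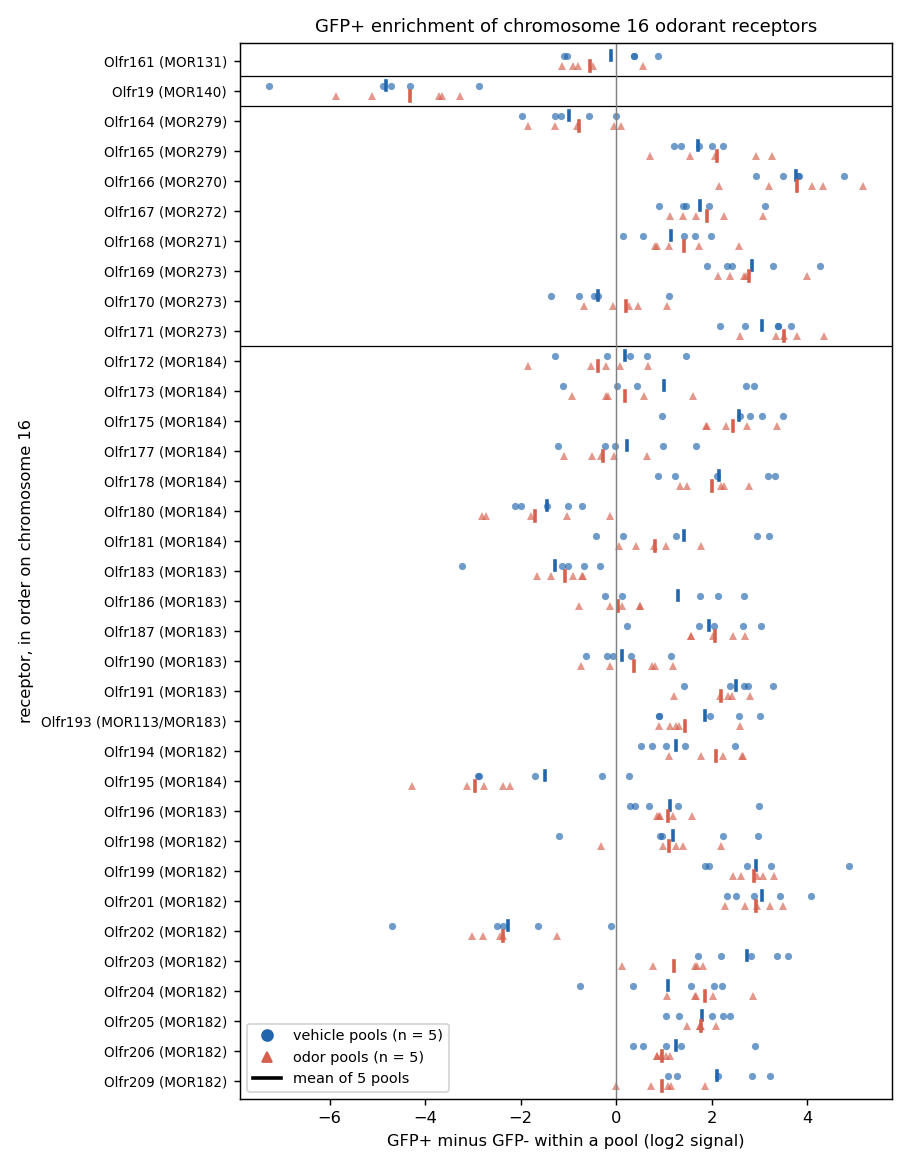
Log2 difference GFP+ minus GFP- (horizontal axis) for each of the 35 receptors in their order along chromosome 16 (vertical axis). Circles are the 5 vehicle pools, triangles the 5 odor pools, short bars the mean of 5, and horizontal lines separate the 4 runs of receptors. Olfr166, Olfr171 and Olfr201 lie above 2 in every pool, Olfr19 far to the left, and Olfr202 lies left of zero between 2 receptors that lie right of it.

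The run from Olfr164 to Olfr171 held 6 higher receptors of 8 and no lower one in vehicle pools. Over all 35 members 51.4% were higher, over other receptors 33.1% and over all probe sets 2.26%. Olfr166, the only MOR270 member here, had the largest difference toward GFP+ cells. Its vehicle GFP- samples were at 11.62, 11.35, 11.24, 11.78 and 11.60, and its GFP+ samples at 15.12, 15.16, 16.02, 14.72 and 15.41. Every GFP+ sample lay more than 2 log2 units above every GFP- sample, and the difference was 3.77 (SE 0.37, 13.6-fold, limma adjusted p = 1.27e-05). In odor pools GFP- samples were at 12.21, 10.37, 11.56, 11.36 and 12.18, and GFP+ samples at 14.37, 15.53, 15.66, 15.70 and 15.37. The groups again did not overlap, and the difference was 3.79.

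Olfr171, of MOR273, was next. In vehicle pools its GFP- samples were at 8.40, 8.93, 8.58, 9.41 and 10.38 and its GFP+ samples at 11.10, 12.31, 12.25, 11.58 and 13.76, a difference of 3.06 (SE 0.27, limma adjusted p = 5.61e-06). In odor pools GFP- samples were at 8.70, 7.62, 8.62, 9.47 and 10.40 and GFP+ samples at 11.30, 11.96, 12.14, 13.26 and 13.75, a difference of 3.52. In both conditions the lowest GFP+ sample was above the highest GFP- sample, and replicate 5 was brightest in each group.

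Olfr169 and Olfr170, the pair with nearly the same upstream stretch, parted. Olfr169 was at 9.29, 11.86, 10.99, 11.99 and 12.36 in vehicle GFP- samples and at 13.55, 13.76, 14.28, 14.41 and 14.68 in GFP+ samples. These groups did not overlap, and Olfr169 was higher by 2.84 (SE 0.34, limma adjusted p = 7.31e-05). Olfr170 was at 9.75, 9.67, 8.60, 10.16 and 11.40 in GFP- samples and at 9.30, 9.29, 9.69, 8.80 and 10.62 in GFP+ samples. Its groups overlapped almost wholly, with a difference of -0.38 (95% interval -1.07 to 0.31, limma adjusted p = 0.635). Olfr169 was more enriched than Olfr170 in 5 of 5 vehicle pools, by 3.21 ± 1.06 (SD, n = 5), and in 5 of 5 odor pools, by 2.57 ± 0.93. Probe sequences were not used here, so signal shared between close relatives, which would make such a pair look more alike, was not tested.

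Olfr165, Olfr167 and Olfr168 of this run were higher by 1.71, 1.76 and 1.16 in vehicle pools and by 2.10, 1.91 and 1.42 in odor pools. The call of Olfr168 was lost under 6 of 18 alternatives in vehicle pools. Olfr164, of MOR279 like its neighbour Olfr165, lay the other way without passing, at -0.997 (SE 0.32, limma adjusted p = 0.0789) in vehicle and -0.78 (0.232) in odor pools.

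In the run from Olfr172 to Olfr209, 12 of 25 receptors were higher in vehicle pools, 3 were lower and 10 did not pass. MOR182, at the end of this run, gave 7 of the higher calls among its 10 members and 1 lower call. MOR184 gave 2 higher and 1 lower of 8, and MOR183 2 higher and 1 lower of 6. Higher and lower shares were 51.4% and 11.4% over all 35 members. They were 33.1% and 15.9% over other receptors, and 2.26% and 6.86% over all probe sets. Of 31 adjacent pairs in the 4 runs, 21 share a family and 3 had calls in opposite directions in vehicle pools: Olfr178 and Olfr180, Olfr201 and Olfr202, and Olfr202 and Olfr203. All 3 pairs are within a family, as are 21 of all 31, and Olfr202 belongs to both pairs named last. Opposite calls were not counted over pairs that are not adjacent, so these 3 are not read as a trait of neighbours. The differences of adjacent receptors were apart by a median of 1.91, from 0.05 to 5.31. The median gap was 1.49 over 92 pairs of the same family and 1.56 over 503 pairs of different families.

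Olfr201 was at 8.18, 8.09, 6.94, 7.83 and 10.14 in vehicle GFP- samples and at 11.61, 10.61, 11.01, 10.71 and 12.46 in GFP+ samples. The groups did not overlap, and Olfr201 was higher by 3.05 (SE 0.27, limma adjusted p = 4.86e-06). Olfr202, beside it, was at 9.26, 8.47, 4.89, 6.28 and 7.87 in GFP- samples and at 4.57, 6.10, 4.78, 4.64 and 5.36 in GFP+ samples. The GFP+ mean was at background, so its difference of -2.26 (SE 0.47, limma adjusted p = 0.00642) is a lower bound in size, and pool 3, where both fractions were dim, differed by only -0.11. Without both pools numbered 5 its adjusted p was 0.0504. Olfr203, on the other side, was at 4.20, 5.02, 4.82, 6.21 and 7.92 in GFP- samples and at 7.80, 7.21, 8.19, 7.92 and 10.74 in GFP+ samples. GFP+ was higher in each pool though the groups overlapped, and with the GFP- mean at background the difference of 2.74 (SE 0.31, limma adjusted p = 5.25e-05) is a lower bound. Within pools, Olfr201 was more enriched than Olfr202 by 5.31 ± 1.60 (SD, n = 5) in vehicle and 5.30 ± 0.63 in odor pools, in 5 of 5 each.

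Olfr178 and Olfr180, both of MOR184, were the third such pair. In vehicle pools Olfr178 was at 7.81, 9.21, 7.94, 8.25 and 9.50 in GFP- samples and at 10.99, 10.09, 11.26, 9.49 and 11.61 in GFP+ samples. Olfr180 was at 9.42, 9.26, 8.82, 9.88 and 9.93 in GFP- samples and at 8.72, 7.28, 7.82, 7.77 and 8.48 in GFP+ samples, with no overlap. Olfr178 was higher by 2.15 (limma adjusted p = 0.000995) and Olfr180 lower by -1.45 (limma adjusted p = 0.0195), a call lost under 5 of 18 alternatives. The upstream stretches of both shared 51.4% of bases.

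Olfr199, of MOR182, was higher by 2.93 (SE 0.36, limma adjusted p = 8.55e-05), from 5.14 to 7.34 in vehicle GFP- samples and from 8.76 to 10.08 in GFP+ samples. Olfr191, of MOR183, was higher by 2.50 (SE 0.28), from 10.71 to 12.35 in GFP- and from 12.98 to 14.72 in GFP+ samples. Neither had overlapping groups. Olfr193, next to Olfr191, with a MOR183 name too, moved the same way, by 1.87 (SE 0.33). Their windows were 79.3% identical end to end but begin at different points, as the gene start of Olfr193 is not an ATG; matched by sequence, a stretch of 103 bases differed at 3, fewer than the 6 of Olfr169 and Olfr170. Olfr191 exceeded it by 0.64 ± 0.66 (SD, n = 5) within vehicle pools. Olfr183, of MOR183, passed as lower at -1.28 (limma adjusted p = 0.0301), but both of its fractions were at background, so no fold is read from it. Olfr161 and Olfr172 were at background in all 4 groups too. RefSeq lists an older name with a pseudogene form for 7 members (Olfr169, Olfr175, Olfr180, Olfr191, Olfr193, Olfr194 and Olfr205), while it calls them protein coding. Of these 7, 6 were higher and Olfr180 lower in each sort. Of the 28 members without such a name, 12 were higher and 3 lower in vehicle pools. The shares there were 33.1% and 15.9% of other receptors and 2.26% and 6.86% of all probe sets.

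Olfr19, alone in its run and of MOR140, differed most of all. Its vehicle GFP- samples were at 9.32, 10.22, 7.98, 9.13 and 12.44 and its GFP+ samples at 4.43, 5.51, 5.10, 4.80 and 5.17. In odor pools GFP- samples were at 10.46, 8.99, 9.23, 8.91 and 11.43 and GFP+ samples at 5.35, 5.27, 5.57, 5.64 and 5.57. All 10 GFP+ samples were in or under the background range and all 10 GFP- samples above it. The differences of -4.82 (SE 0.51, limma adjusted p = 2.47e-05) and -4.33 (7.37e-05) are therefore lower bounds in size.

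**Figure D2:**
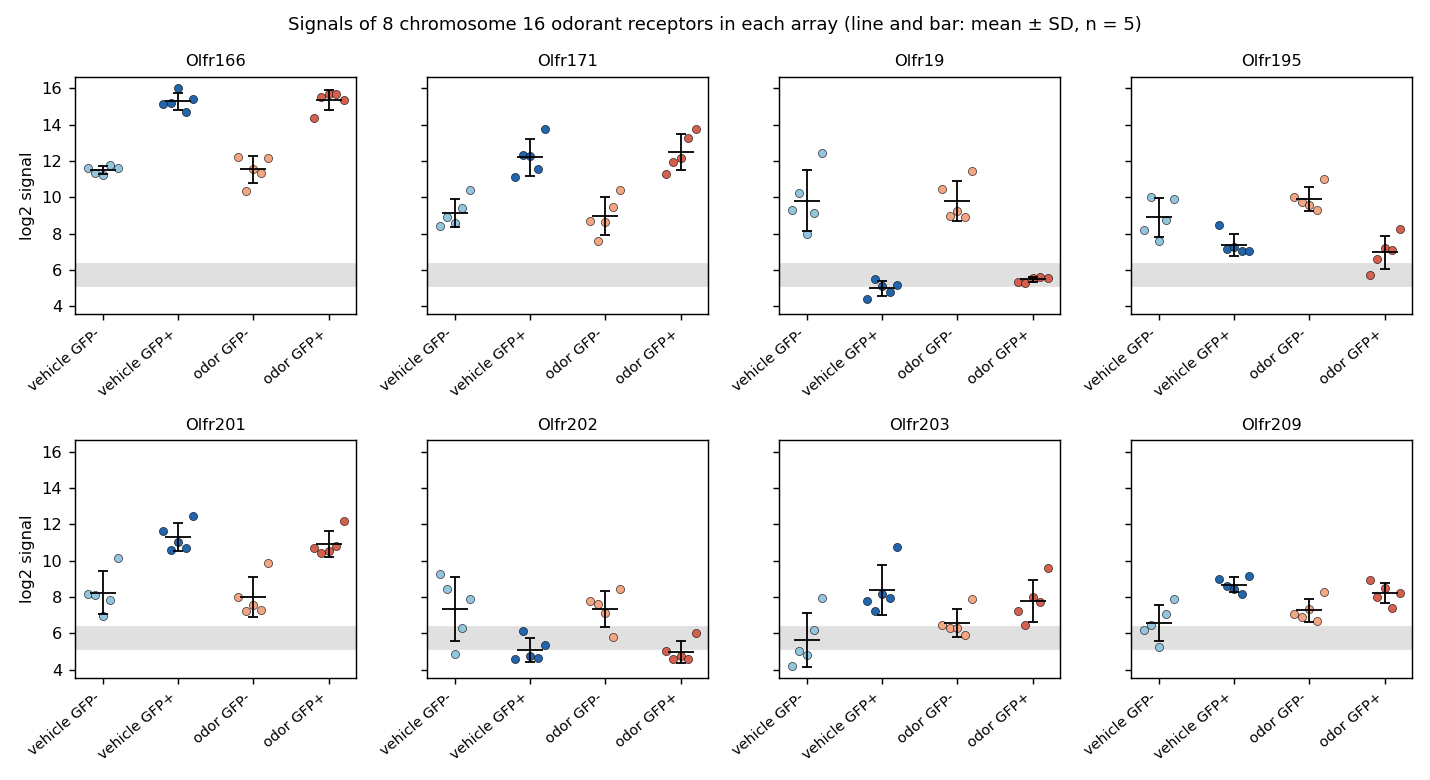
Log2 signal (vertical axis) of 8 receptors in each array of the 4 groups (horizontal axis), with the mean ± SD of 5 arrays. The grey band spans the medians of background controls on the 20 arrays, 5.14 to 6.34. GFP+ samples of Olfr19 and Olfr202 sit in or below the band, while those of Olfr166, Olfr171 and Olfr201 all sit above their GFP- samples, by the widest margin for Olfr166.

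The sort gave much the same calls in mice that had received the odor. In odor pools 17 members were higher in GFP+ cells (2.07% of all probe sets, 29.9% of other receptors), 4 were lower (5.82% and 17.3%) and 14 did not pass, with a median of 1.10 (0.39 over other receptors, 0.08 over all probe sets). GFP+ was higher in all 5 odor pools for 20 members (14.1% of all probe sets, 40.2% of other receptors) and lower in all 5 for 5 members (10.8% and 21.5%). The fractions did not overlap for 8 members higher in GFP+ (1.04% of all probe sets) and for 2 lower, Olfr19 and Olfr195 (4.02%). Of the calls, 16 were higher in both conditions and 3, those of Olfr19, Olfr180 and Olfr202, were lower in both. No receptor was called in opposite directions, and 11 passed in neither. Across the 35 members, both sorts correlated at r = 0.95 (rho = 0.90), and across 1045 other receptors at r = 0.97. This is across genes of the same arrays' probe sets, from different mice, and is given as a description. All of the 18 alternatives kept 13 of the 22 calls in vehicle pools and 13 of the 21 in odor pools.

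A few calls passed in 1 condition. Olfr195, of MOR184, was lower in odor pools by -2.96 (SE 0.45, limma adjusted p = 0.00059), and at -1.50 (0.0544) in vehicle pools it missed the threshold. Olfr204 was higher in odor pools by 1.86, Olfr206 and Olfr209 in vehicle pools by 1.24 and 2.11, and Olfr183 was lower in vehicle pools. The next test asks whether such differences between conditions exceed the spread.

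For the odor effect on GFP+ enrichment, which is the difference between both sorts, limma called 0 of 35 members and 0 of 22206 probe sets (0%). Before adjustment, p was under 0.05 for 4 members (11.4%), 40 of 1045 other receptors (3.83%) and 269 probe sets (1.21%), and all 4 members had less enrichment or more depletion in odor pools. The median over members was -0.08, over other receptors -0.13. The median half-width of the 95% interval was 1.02 for a member, so an odor effect of about 2-fold would often lie within it.

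Olfr203 had the smallest p. Its pool differences were 3.60, 2.19, 3.37, 1.72 and 2.82 in vehicle and 0.77, 0.13, 1.69, 1.82 and 1.66 in odor pools. All were above 0, and only the vehicle pool 4 lay among the odor values. The odor effect was -1.52 (95% interval -2.48 to -0.57, limma adjusted p = 1, unadjusted 0.00442), and the GFP- mean, at background in vehicle pools, was 5.63 ± 1.47 there and 6.58 ± 0.77 in odor pools (SD, n = 5).

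Olfr209, the last receptor of the run, had pool differences of 2.85, 2.13, 3.21, 1.09 and 1.27 in vehicle and 1.86, 1.08, 1.14, 0.73 and -0.01 in odor pools. The sets overlapped, and the effect was -1.15 (95% interval -2.16 to -0.14). For Olfr195 they were 0.28, -2.88, -0.31, -1.69 and -2.89 in vehicle and -4.28, -3.13, -2.37, -2.22 and -2.77 in odor pools. Vehicle pools were spread over more than 3 log2 units and odor pools were all low, with an effect of -1.46 (95% interval -2.82 to -0.10). For Olfr186 the effect was -1.25 (95% interval -2.42 to -0.08), with vehicle pools from -0.24 to 2.68 and odor pools from -0.78 to 0.50. The limma adjusted p of each was 1. At the other end, Olfr194 had the largest positive value, 0.83. For the 3 receptors most enriched in vehicle pools the interval of the odor effect held 0: Olfr166 at 0.02 (95% interval -1.10 to 1.15), Olfr171 at 0.46 (-0.38 to 1.30) and Olfr201 at -0.12 (-0.94 to 0.70).

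Within GFP+ cells, odor against vehicle gave 0 calls among members and among all probe sets by limma (0%). With p under 0.05 before adjustment were 0 members, 15 other receptors (1.44%) and 61 probe sets (0.275%). The smallest p belonged to Olfr19 at 0.48 (95% interval -0.07 to 1.02), whose GFP+ signal was at background in both groups, followed by Olfr170 at 0.70 (-0.20 to 1.59) and Olfr190, of MOR183, at 0.89 (-0.32 to 2.10). Olfr190 samples were at 6.46, 6.52, 7.62, 6.12 and 8.32 in vehicle and 7.39, 7.24, 7.93, 7.19 and 9.73 in odor GFP+ cells, and these overlapped. The median over members was 0.01, with a range from -0.58 to 0.89.

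Odor and vehicle GFP+ samples of the same number deviated together, though the labels do not say that they pair. With that number as a block, limma again called 0 members and 0 probe sets (smallest adjusted p among members 0.993, among all probe sets 0.091). Before adjustment, p was then under 0.05 for 8 members (22.9%) and 820 probe sets (3.69%). The share of other receptors was not counted with the block. By limma without it, p was under 0.05 for 1.44% of other receptors and 0.275% of all probe sets. Within numbers, Olfr190 differed by 0.94, 0.72, 0.31, 1.07 and 1.40 (95% interval of the mean with the block 0.45 to 1.33). Olfr168, of MOR271, differed by 0.57, 1.08, 0.47, 1.24 and 0.53 (0.35 to 1.20), and Olfr170 by 0.35, 0.29, 0.41, 1.77 and 0.66 (0.19 to 1.21). In these 3 members the odor sample was higher at all 5 numbers, as in 3.15% of all probe sets. In another 3, Olfr186, Olfr203 and Olfr205, it was lower at all 5, as in 2.31% of all probe sets. Over other receptors, neither share was counted. Olfr203 differed by -0.57, -0.76, -0.21, -0.18 and -1.17 (-1.02 to -0.14).

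Within GFP- cells limma called 0 members and 0 probe sets as well (0%), with 0 members, 3 other receptors (0.287%) and 30 probe sets (0.135%) at an unadjusted p under 0.05. Olfr195 had the smallest p, at 1.03 (95% interval -0.09 to 2.16). It was at 8.20, 10.03, 7.58, 8.74 and 9.92 in vehicle and at 9.99, 9.75, 9.57, 9.30 and 11.02 in odor GFP- cells, so 3 of 5 vehicle samples were below every odor sample. In GFP+ cells it was at 8.48, 7.16, 7.28, 7.05 and 7.02 in vehicle and at 5.71, 6.62, 7.20, 7.08 and 8.24 in odor samples, a difference of -0.43. Olfr186 and Olfr209 were at 0.73 (-0.19 to 1.65) and 0.70 (-0.35 to 1.75) in GFP- cells. In neither fraction did any of the 35 members have odor samples all above or all below the vehicle samples (0.0585% and 0.045% of all probe sets did in GFP+ cells, 0.054% and 0.036% in GFP- cells).

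**Figure D3:**
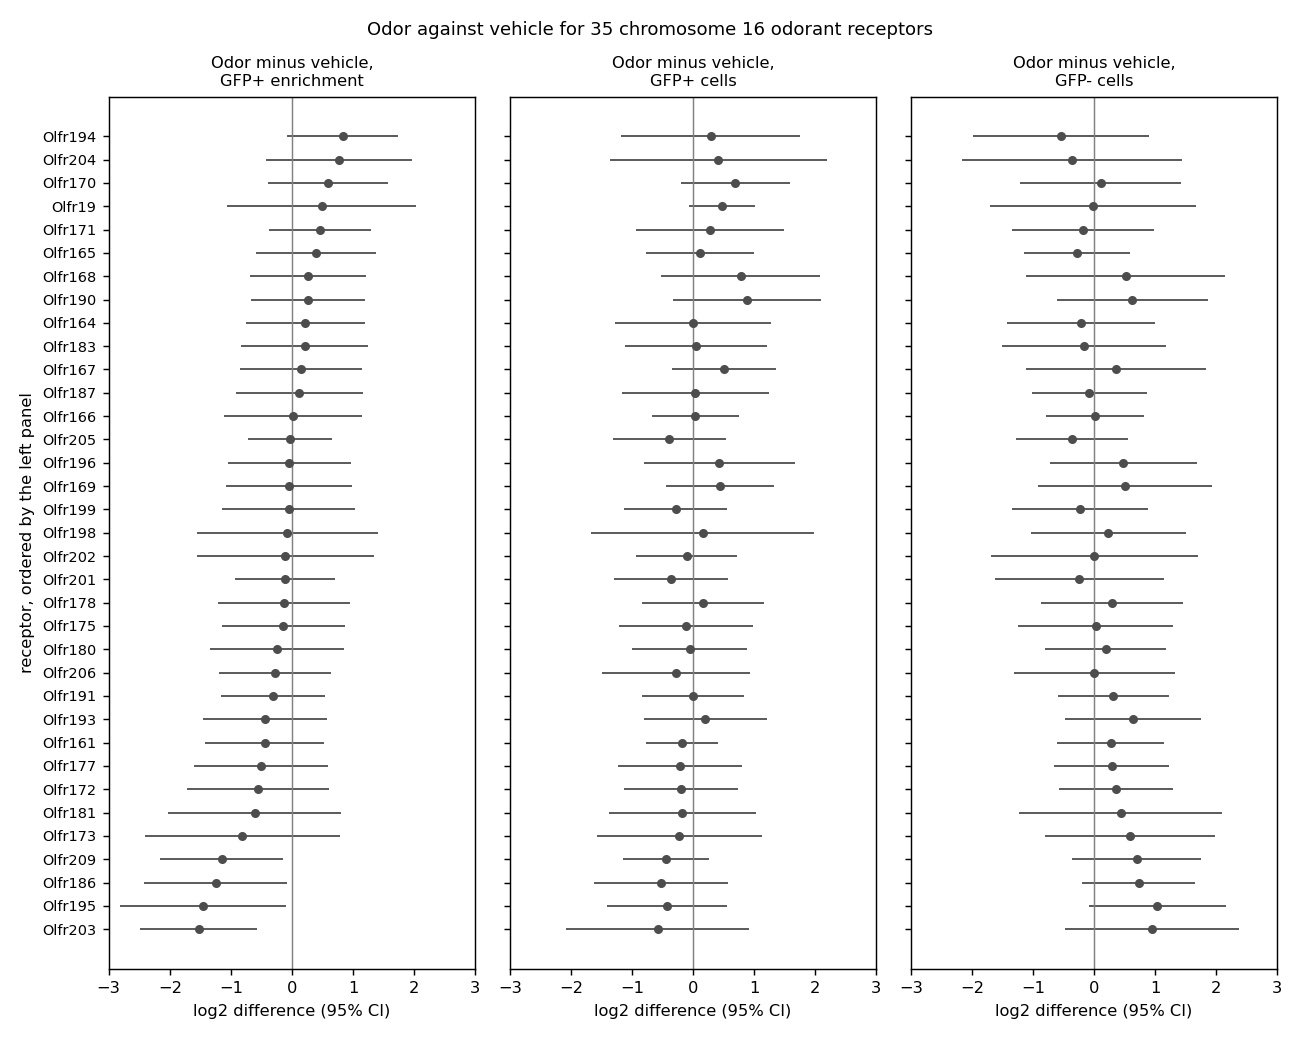
Odor minus vehicle on the log2 scale (horizontal axis) with 95% intervals for the 35 receptors (vertical axis) in 3 panels: the GFP+ enrichment, GFP+ cells and GFP- cells. Intervals of 4 receptors in the first panel (Olfr186, Olfr195, Olfr203 and Olfr209) leave out zero before adjustment, and none does so in the other 2 panels, which show fits without a replicate block.

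Calls in the sort were few among genes with which odorant receptors act, as they were among all probe sets. Of all probe sets, 2.26% were higher and 6.86% lower in vehicle pools, and 2.07% and 5.82% in odor pools. Of 15 transduction genes, among them Gnal, Adcy3 and the channel subunit gene Cnga2, 0 were higher and 1 lower in both sorts, with a median of 0.49 in vehicle and 0.45 in odor pools. The lower gene was Grk3, a kinase that desensitises G protein-coupled receptors; its signal was at background in all 4 groups, so no size is read from it. Of 5 genes for receptor folding and transport to the surface, such as Rtp1 and Rtp2, 0 passed in either sort (medians 0.53 and 0.34). Of 15 genes tied to receptor choice, such as Lhx2, Ldb1 and Ebf1, Lbr alone passed, as lower at -2.18 and -1.94. Lbr encodes the lamin B receptor of the nuclear envelope and is expressed by many cell types. None of these lists had a call in the 3 comparisons of odor with vehicle.

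Markers of other cells moved with the sort as well. The 15 mature neuron markers had no call, with medians of 0.51 and 0.45. Of 10 immature neuron markers 4 were lower in each sort, of 5 measured globose basal and cycling markers 3, of 4 Bowman gland markers 2 and of 5 microvillar cell markers 5. Top2a (cycling) was called lower in odor pools with both fractions at background, so no size is read there. The uncalled Neurog1 and Hes6 (globose basal), Muc5b (Bowman gland) and Ermn (sustentacular) were at background in all 4 groups. They could thus show no change. Aqp5 (Bowman gland), also uncalled, was at background in all groups but odor GFP-. Of 7 sustentacular markers 2 were lower in vehicle pools and 0 in odor pools, and the 3 horizontal basal cell markers were at background in all 4 groups, so they could show no change. Their part in the receptors' values was not tested. With arrays centred on the mature neuron markers, the members' median was 0.73 in vehicle and 0.64 in odor pools.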

How the data were processed

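Total RNA (50 to 100 ng, per the labels' protocols) was turned into biotin-labelled cRNA. Affymetrix Expression Console is the software named per the submitters' processing notes; version and normalization were not stated in the sources used here. Values deposited by the authors are log2 signals, 1 column per array, taken without further normalization. The number of arrays limits the precision. Of 28846 rows, 6640 controls were left out and 22206 probe sets kept with no filter. Of these, 2634 have no symbol. No column was left unused (0).

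Samples were grouped by their titles. GFP+ and GFP- samples of 1 pool share mice, so their differences entered 1 limma 3.58.1 fit (R 4.3.3, lmFit and eBayes) for both sorts and the odor effect on enrichment. Within a fraction, odor and vehicle were compared on its 10 samples. P-values were adjusted by Benjamini-Hochberg over all probe sets, with a threshold of 0.05, and the code was tested on simulated data. Labels do not say that odor and vehicle pools of 1 number share a day, but same-numbered GFP+ samples deviated together from their group means, with correlations of 0.25, 0.52, 0.35, 0.16 and 0.86, all above 0.1, so the numbers were taken to pair there. They did not in GFP- cells (number 2 at -0.38). For the differences GFP+ minus GFP- the correlations were -0.31, -0.48, 0.16, -0.14 and 0.21. The group means include the arrays of replicate 5, with their higher medians and lower brightest signals. The share of these arrays in the correlations of the other numbers was not tested. The pairing in GFP+ cells is therefore an assumption.

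The members and the gene lists were chosen with earlier results of these data known. Described in full were the 6 highest and 6 lowest members in the vehicle sort, the 3 with the smallest p in each odor comparison, the 3 brightest, and neighbours compared with them; others named stand with 1 or 2 values. For lists, the probe set with the highest mean stood for a gene. Gene order, family names and upstream sequences are from RefSeq (GRCm38.p6), matched by gene ID for all 35 members (28 for upstream sequences). In all 19 alternatives were tried.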

Additional observations from a re-analysis of the deposited data

Results flagged for a closer look

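Values of single arrays far from the other 4 of their group were looked for in 148 sets of 5 arrays, by the gap to the nearest array as a share of the whole range (limit 0.71). There were 11, or 7.43%, where chance gives about 1 in 20, and 9 of them were on arrays of replicate 5. On the odor GFP- array of replicate 5, Olfr177 was at 10.66 (nearest 9.12), Olfr178 at 10.71 (8.74), Olfr203 at 7.91 (6.46) and Omp at 18.24 (19.24). On the odor GFP+ array of replicate 5, Olfr187 was at 9.89 (8.22), Olfr201 at 12.17 (10.78) and Omp at 18.29 (19.50). Olfr194 was at 8.61 (6.57) on the vehicle GFP- array of replicate 5, and Olfr203 at 10.74 (8.19) on the vehicle GFP+ array of replicate 5. On arrays of replicate 1, Olfr166 was at 14.37 (15.37) in odor GFP+ and Olfr195 at 8.48 (7.28) in vehicle GFP+ cells. The receptors on replicate 5 stood above their group and Omp below it. Median signals were higher on these arrays than on the others, and the brightest signals lower.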

How the results depend on the processing

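Counts of members called changed by more than 1.5 times without both pools numbered 5, with no replicate block and without vehicle replicate 2: in vehicle pools the lower count fell from 4 to 1 without both pools numbered 5 and to 2 with no replicate block, and in odor pools the higher count went from 17 to 11 with no replicate block. Ignoring the pool took calls over all probe sets to 1198 and 1050. The odor median moved to 1.31 when arrays were centred on their median and to 0.64 when centred on mature neuron markers, a setting chosen after seeing the data. Median centring moved the median of all probe sets in vehicle pools from 0.09 to 0.33 and their calls from 501 higher and 1523 lower to 1169 and 1211, and in odor pools from 460 and 1292 to 807 and 1055. Members then stood at 21 higher and 3 lower, and 20 and 4. Leaving out 1 pool gave 15 to 23 higher and 2 to 5 lower members in vehicle pools (2 without vehicle replicate 2), 15 to 19 and 3 to 5 in odor pools, and medians of 1.03 to 1.59, 1.06 to 1.14, -0.24 to 0.14 for the odor effect, -0.29 to 0.23 in GFP+ and -0.17 to 0.48 in GFP- cells. Every alternative left 0 members called in the 3 odor comparisons; with the replicate block, the pairing of numbers, these had 0 calls and medians of -0.08, 0.01 and 0.23. Signs that changed were of values that had not passed. Olfr161 in vehicle pools was 0.040 with quantile normalization, 0.14 with median centring and 0.13 without both pools numbered 5. Olfr186 in odor pools was -0.045, -0.071 without both pools numbered 5 and -0.42 with marker centring. Marker centring also gave, in vehicle pools, Olfr172 -0.34, Olfr177 -0.29, Olfr190 -0.41 and Omp -0.30, and in odor pools Olfr170 -0.25, Olfr173 -0.29, Olfr190 -0.087 and Omp -0.34. Leaving out 1 pool gave ranges through 0 for Olfr161 (-0.35 to 0.14), Olfr172 (-0.14 to 0.55), Olfr177 (-0.13 to 0.60), Olfr190 (-0.14 to 0.30) and Omp (-0.021 to 0.38) in vehicle pools, and for Olfr173 (-0.18 to 0.45) and Olfr186 (-0.071 to 0.25) in odor pools. The causes were not tested.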
